A study of Mus musculus with 2 samples.

Results

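The 8 transcripts described here are the adult alpha-globin genes Hba-a1 and Hba-a2, the adult beta-globin genes Hbb-bs and Hbb-bt, and 4 other red cell genes, Alas2, Bpgm, Slc4a1 and Tent5c. They were taken by symbol from the 32285 genes of the deposited matrices, and all 8 were present. Their counts were summed in each library and each marker-defined cell cluster, and the levels outside the erythroid cluster were set against those inside it.

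The study profiled blood neutrophils by 10x Genomics droplet single-cell RNA sequencing in 2 libraries, 1 labelled WT (wild type) and 1 labelled APP/PS1, and the labels give no treatment for either. APP/PS1 mice carry transgenes for mutant human amyloid precursor protein and presenilin, both linked to familial Alzheimer's disease. Each library pooled cells of 3 mice at 7 months of age. The study's isolation text, written for female APP/PS1 mice, lysed red cells in ammonium chloride before neutrophils were enriched by negative selection. With 1 library per genotype there is no replicate error and no test between genotypes. All intervals are 95% intervals for counting error only, and a difference of genotype cannot be told apart from a difference between 2 preparations.

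Red cells lose their nucleus as they mature, and reticulocytes, the youngest cells in blood, still carry messenger RNA, most of it globin. Adult haemoglobin joins alpha and beta chains around haem. Globin messages in a library of blood leukocytes are commonly treated as red cell RNA that was free in the suspension or shared a droplet.

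The files held 17123 WT barcodes with 92458623 UMIs (unique molecular identifiers, each standing for 1 captured molecule) and 17645 APP/PS1 barcodes with 84870864 UMIs. After limits on genes, UMIs and mitochondrial share per cell, 14564 and 15208 cells stayed, in 13 clusters made without the 8 genes. The libraries shared 83 barcode sequences. The cluster with neutrophil markers alone, called neutrophil-like, held 5689 WT and 6630 APP/PS1 cells, and a second cluster with neutrophil and platelet markers held 1836 and 2804. Monocyte-like, lymphocyte-like and other clusters made up the remainder, although the labels name the cells neutrophils. The erythroid-like cluster held 170 WT cells, 1.17% of the library, and 84 APP/PS1 cells, 0.552%. It was named from markers that are not among the 8 genes. Levels are given below as CPM (UMIs of a gene per 1000000 UMIs of the cells summed).

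Promoters are shown for the 4 globin genes and Alas2, the 5 members with the highest CPM in the erythroid-like cluster of both libraries. Whether the motifs marked in them bear on the levels was not tested. Each sequence covers the 250 bases before the RefSeq start on assembly GRCm38.p6, read 5′ to 3′ on the gene's strand. Capitals mark 4 short motifs on either strand, namely the CACCC box known to be bound by Klf factors, the GATAA site of Gata factors, the TATAA of the TATA box and the CCAAT box. The Hba-a1 window is chr11:32283422-32283671 and the Hba-a2 window chr11:32296242-32296491, both on the plus strand. The Hbb-bs window is chr7:103827929-103828178 and the Hbb-bt window chr7:103813924-103814173, both on the minus strand. The Alas2 window is chrX:150547167-150547416 on the plus strand. Gene starts in the mm10 annotation, given below, differ from the RefSeq starts, and each of the 5 windows overlaps its gene as annotated there.
Hba-a1: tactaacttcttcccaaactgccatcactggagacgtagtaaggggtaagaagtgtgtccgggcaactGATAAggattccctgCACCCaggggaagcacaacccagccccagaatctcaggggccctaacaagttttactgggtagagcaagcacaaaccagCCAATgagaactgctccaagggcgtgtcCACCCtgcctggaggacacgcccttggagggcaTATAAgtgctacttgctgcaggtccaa
Hba-a2: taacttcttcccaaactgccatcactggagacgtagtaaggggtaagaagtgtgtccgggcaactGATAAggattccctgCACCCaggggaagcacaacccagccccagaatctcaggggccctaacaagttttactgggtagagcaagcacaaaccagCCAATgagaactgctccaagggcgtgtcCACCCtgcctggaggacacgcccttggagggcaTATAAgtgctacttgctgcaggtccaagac
Hbb-bs: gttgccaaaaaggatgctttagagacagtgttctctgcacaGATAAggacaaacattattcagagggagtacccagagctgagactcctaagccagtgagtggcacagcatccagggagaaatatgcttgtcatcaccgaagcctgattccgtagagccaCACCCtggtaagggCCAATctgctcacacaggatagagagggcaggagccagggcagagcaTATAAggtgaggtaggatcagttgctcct
Hbb-bt: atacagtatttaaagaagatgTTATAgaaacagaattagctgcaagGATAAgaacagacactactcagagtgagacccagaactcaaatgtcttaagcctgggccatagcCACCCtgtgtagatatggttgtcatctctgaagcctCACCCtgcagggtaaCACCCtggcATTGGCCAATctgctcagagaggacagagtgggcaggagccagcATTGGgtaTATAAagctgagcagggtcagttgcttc
Alas2: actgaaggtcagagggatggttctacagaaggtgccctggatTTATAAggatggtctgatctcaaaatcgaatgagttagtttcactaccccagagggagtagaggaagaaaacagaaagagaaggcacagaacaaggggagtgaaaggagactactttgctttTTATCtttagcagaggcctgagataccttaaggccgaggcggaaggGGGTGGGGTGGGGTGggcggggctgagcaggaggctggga
Each of the 5 windows held the first 3 of these motifs, and the 4 globin windows also held the CCAAT box. Over 32851 promoters of the same length, CACCC or its complement GGGTG was in 52.0%, GATAA or TTATC in 22.6%, TATAA or TTATA in 22.8% and CCAAT or ATTGG in 33.8%. TATAA and TTATA can overlap, as they do in Alas2. The Bpgm and Tent5c windows held CCAAT, 3 matches and 1, and none of the other motifs. RefSeq sequences were matched for 7 of the 8 genes, all but Slc4a1.

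The paralogs share much of their sequence. Identity was counted over all columns of an end-to-end alignment, with gaps counted as not identical. The Hba-a1 and Hba-a2 promoters were identical in 97.6% of 253 columns and the Hbb-bs and Hbb-bt promoters in 70.5% of 258. For the transcripts it was 537 of 715 columns in the alpha genes, 75.1%, and 587 of 705 in the beta genes, 83.3%. Transcript lengths differ, at 699 and 554 bases for Hba-a1 and Hba-a2 and 628 and 703 for Hbb-bs and Hbb-bt. The transcript percentages thus include unpaired bases and do not rank the pairs by likeness where they align. In the annotation of build mm10 the alpha genes, chr11:32283511-32284465 and chr11:32296489-32297298 on the plus strand, lie 12023 bases apart. The beta genes, chr7:103826534-103828096 and chr7:103812524-103813996 on the minus strand, lie 12537 bases apart. Of the 251 windows of 150 bases in the last 400 bases of each transcript, 128 of Hba-a1 and 112 of Hba-a2 also occurred in the other alpha gene, and 92 of Hbb-bs and 91 of Hbb-bt in the other beta gene. Reads from those windows cannot be assigned to 1 paralog, so the split between paralogs is uncertain and is used below only to compare cells counted the same way.

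The 4 haemoglobin genes dominated the erythroid-like cluster. Together they made up 72.6% of its UMIs in WT and 62.7% in APP/PS1, a mean of 5273 and 4507 haemoglobin UMIs per cell. Hbb-bs stood at 342071 CPM in WT against 296440 in APP/PS1, Hba-a1 at 160090 and 141273 CPM, Hba-a2 at 135960 and 115666 CPM, and Hbb-bt at 88067 and 73271 CPM. The assay tags each molecule once at its 3′ end, so these levels are not divided by gene length. In both libraries the order on this CPM scale was Hbb-bs, Hba-a1, Hba-a2, Hbb-bt, with intervals that did not overlap.

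The other 4 genes were far lower in the same cells. Alas2, the erythroid enzyme of the first step of haem synthesis, at chrX:150547375-150570638 on the plus strand, reached 1158 CPM in WT against 952 in APP/PS1. Bpgm, at chr6:34476207-34505613 on the plus strand, makes the bisphosphoglycerate that lowers the oxygen affinity of haemoglobin, and it reached 925 and 789 CPM. Tent5c, a poly(A) polymerase gene at chr3:100451628-100489324 on the minus strand, reached 699 and 515 CPM. Slc4a1, the anion exchanger of the red cell membrane, at chr11:102348824-102366203 on the minus strand, reached 228 and 161 CPM. These 4 kept their order in both libraries, and a UMI of Alas2 was seen in 100% of WT and 91.7% of APP/PS1 erythroid-like cells, whereas one of Slc4a1 was seen in 52.9% and 33.3%.

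Between genotypes, none of the 8 genes in the erythroid-like cluster was lower in APP/PS1 by over 0.5 on the log2 scale with 0.5 UMI added. The background was 4.27% of the 889 genes there with at least 50 UMIs in either library, and 46.8% were over 0.5 higher in APP/PS1. The median gene was 0.46 higher in APP/PS1 on the log2 CPM scale, while haemoglobin summed was at 0.863 of WT, a log2 difference of -0.21 (-0.22 to -0.21). CPM values share a fixed total, of which haemoglobin took 72.6% in WT and 62.7% in APP/PS1 here. A lower haemoglobin share by itself raises the CPM of the other genes, so these rises do not show more RNA of those genes per cell. In the larger erythroid-like cluster with no percentile limits, described below, haemoglobin took 93.1% and 92.8%. Slc4a1 had the largest difference of the 8, -0.50 (-0.85 to -0.17) without the added count. The cluster also carried neutrophil RNA, for with the 8 genes left out S100a8, a calcium-binding protein gene of neutrophils, stood at 49497 CPM in WT cells and at 44509 in APP/PS1 cells. The neutrophil-like cells had 63965 and 49303 CPM of it on the same scale. The part of this neutrophil RNA in the erythroid differences was not tested.

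Most red cell RNA lay in barcodes that the limits on genes and UMIs removed. Over all barcodes the 4 genes gave 4521929 UMIs in WT, 4.89% of the library, and 2972149 in APP/PS1, 3.50%. Of these, 70.0% and 78.4% were in removed barcodes. Of the 1015 WT barcodes in which haemoglobin was over 50% of UMIs, 818 had too few genes, and in APP/PS1 this held for 573 of 666. When cells were clustered with no percentile limits, the larger erythroid-like cluster held 884 WT and 583 APP/PS1 barcodes with medians of 117 and 109 genes, 93.1% and 92.8% haemoglobin, and S100a8 at only 7335 and 6526 CPM. The red cell barcodes low in neutrophil RNA were thus mainly outside the limits. With these as erythroid cells, Alas2 came to 15.6 and 14.8 UMIs per 10000 haemoglobin UMIs, against 15.9 and 15.2 inside the limits. Bpgm changed from 12.7 and 12.6 to 9.24 and 9.12, Tent5c from 9.63 and 8.21 to 6.46 and 5.69, and Slc4a1 from 3.13 and 2.56 to 1.33 and 1.17.

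Outside the erythroid-like cluster, haemoglobin UMIs were found in most cells at a low level and in a few cells at far higher levels. The median was 4 haemoglobin UMIs per cell in WT and 2 in APP/PS1, whereas 5.07% of WT cells and 17.8% of APP/PS1 cells had none. Cells with over 50 haemoglobin UMIs numbered 194 of 14394 in WT, 1.35%, and 120 of 15124 in APP/PS1, 0.793%, yet held 86.4% and 86.5% of the haemoglobin UMIs found outside the cluster. Their medians were 1150 and 1001 haemoglobin UMIs.

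**Figure D1:**
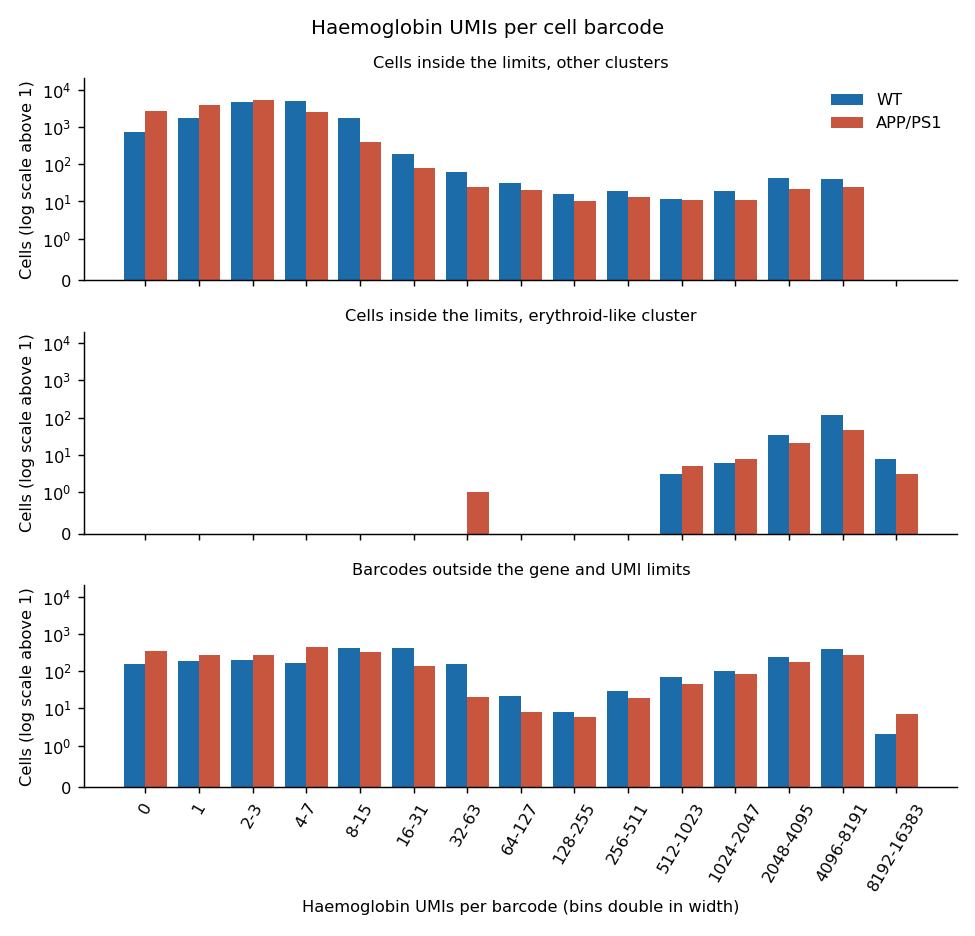
Number of barcodes (y axis, log scale above 1) by haemoglobin UMIs per barcode (x axis, bins that double in width) in WT (blue) and APP/PS1 (red), for cells of the other clusters (top), erythroid-like cells (middle) and barcodes outside the limits (bottom). In the top panel most cells lie below 16 UMIs, and a low tail of 39 WT and 25 APP/PS1 cells reaches 4096 UMIs or more, and the same bin holds 118 and 46 erythroid-like cells.

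The 50-UMI limit was set after the distribution had been seen, and 83 WT and 39 APP/PS1 cells lay just inside it at 26 to 50 UMIs, with 39 and 21 just outside at 51 to 100. The cells over it are called carriers here. Scrublet, a doublet caller, marked 40.2% of WT and 38.3% of APP/PS1 carriers, against 6.84% and 5.30% of the other cells outside the erythroid-like cluster. Carriers had medians of 5985 and 5818 UMIs, against 3228 and 3070 in the others, and were found in each cluster with over 40 cells in both libraries except the APP/PS1 basophil-like cells, of which 0 of 43 were carriers (an exact interval of up to 8.22%). Scrublet was run with the 8 genes left in the matrix, so its calls and the carrier limit both draw on haemoglobin UMIs. The excess of calls among carriers is thus not independent of how carriers were chosen. The part of doublets in the carriers was not tested beyond these counts.

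In neutrophil-like cells haemoglobin was lower in the APP/PS1 library. A cell held a mean of 11.9 haemoglobin UMIs and a median of 3 in WT, and a mean of 7.51 and a median of 1 in APP/PS1. These means were 0.226% and 0.167% of those in the erythroid-like cells of the same library, or 0.0630% and 0.0432% once carriers were left out, and the 48 WT and 41 APP/PS1 carriers held 72.4% and 74.2% of the haemoglobin UMIs. The summed level was 4264 CPM (4232 to 4296) in WT and 2571 CPM (2548 to 2593) in APP/PS1, a ratio of 0.603 (0.596 to 0.610). Without carriers the level was 1190 and 670 CPM and the ratio 0.563 (0.550 to 0.575). It was 0.469 with Scrublet doublets removed, though those calls themselves drew on haemoglobin UMIs. At clustering resolution 0.4, where only 2218 WT and 1323 APP/PS1 cells were named neutrophil-like, the ratio was 0.245.

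Each globin gene gave a ratio close to that of the sum. In neutrophil-like cells Hbb-bs stood at 2202 CPM in WT against 1372 in APP/PS1, a log2 difference of -0.68 (-0.71 to -0.66), and Hba-a1 at 974 and 564 CPM, -0.79 (-0.82 to -0.75). Hba-a2 stood at 799 and 449 CPM, -0.83 (-0.87 to -0.79), and Hbb-bt at 289 and 186 CPM, -0.63 (-0.70 to -0.57). These 4 passed the 0.5 log2 difference downwards and none of the 7 members with 50 UMIs passed it upwards, against a background of 3.96% of 7876 genes lower and 5.97% higher. The median gene differed by 0.06. Without carriers the log2 differences of the 4 globin genes lay between -0.87 and -0.76.

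The non-globin members differed less or were too few in neutrophil-like cells. Alas2 gave 80 UMIs in WT and 69 in APP/PS1, at 5.02 and 3.56 CPM, and Tent5c gave 176 and 154 UMIs, at 11.05 and 7.95 CPM. Their log2 differences of -0.49 (-0.98 to -0.01) and -0.47 (-0.80 to -0.15) lay just short of 0.5, while that of Bpgm, with 54 and 58 UMIs, was -0.18 (-0.74 to 0.38). Slc4a1 gave 4 and 3 UMIs, too few to compare.

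The lower haemoglobin level was not particular to neutrophil-like cells. Without carriers the APP/PS1 library was below WT in each of the 12 clusters outside the erythroid-like one, at ratios between 0.440 in an unnamed cluster led by Iglc1, Igha and Jchain and 0.699 in T cell-like cells with Il7r. The ratio was 0.613 in NK cell-like, 0.547 in B cell-like and 0.536 in Fn1/F13a1/Ccr2 monocyte-like cells. With carriers kept, the ratios spread from 0.0257 in basophil-like cells, where 2 WT carriers held 94.5% of the WT haemoglobin UMIs, to 0.888 in T cell-like cells with Cd8b1. Fewer red cells in a preparation and less RNA released per red cell would both lower this level and cannot be told apart.

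**Figure D2:**
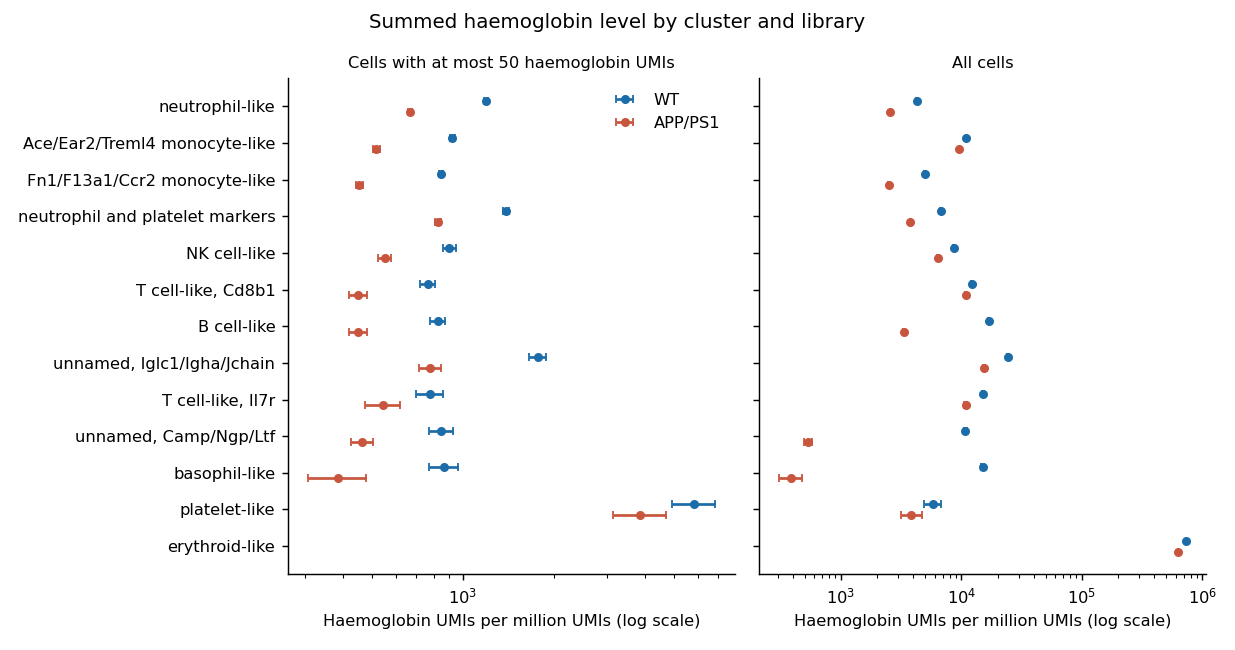
Summed haemoglobin CPM (x axes, log scale) by cluster in WT (blue) and APP/PS1 (red), in cells with at most 50 haemoglobin UMIs (left) and in all cells (right), with bars for 95% counting intervals. On the left each APP/PS1 point lies below its WT point, and on the right the erythroid-like cluster lies above all others in both libraries.

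The share of cells with at least 1 haemoglobin UMI followed depth as well as library. It was 92.4% (91.7 to 93.1) of WT and 78.1% (77.1 to 79.1) of APP/PS1 neutrophil-like cells. After each cell was thinned to 1000 UMIs these became 66.2% and 45.4%. The thinned share in NK cell-like cells, a lineage that should lack the gene products, was 52.5% and 37.4%, and in B cell-like cells 53.3% and 33.6%. Median depths were 2509 and 2608 UMIs in neutrophil-like, 3603 and 3362 in NK cell-like and 5005 and 5875 in B cell-like cells. Haemoglobin UMIs in neutrophil-like cells, carriers left out, rose with depth but less than in proportion, from a mean of 2.12 in WT cells of 1000 to 1500 UMIs to 11.5 in those of 9000 to 15000, and from 1.40 to 4.68 in APP/PS1.

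The balance of the chains differed between neutrophil-like and erythroid-like cells. Hbb-bs made up 88.4% of beta-globin UMIs in WT and 88.1% in APP/PS1 neutrophil-like cells, against 79.5% and 80.2% in the erythroid-like cluster. Without carriers the neutrophil-like values were 84.1% and 84.2%, and the gap of 8.89 and 7.88 percentage points became 4.57 and 4.03. With erythroid-like cells taken without percentile limits, and neutrophil-like cells likewise, the gap was 3.09 and 3.10 points. The Hba-a1 share of alpha UMIs was 54.9% and 55.6% in neutrophil-like and 54.1% and 55.0% in erythroid-like cells. Alpha chains were 41.6% and 39.4% of haemoglobin UMIs in neutrophil-like cells and 40.8% and 41.0% in erythroid-like cells, a difference whose sign in APP/PS1 turned without carriers, at 44.9%.

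The beta-chain share varied with the amount of globin in the cell. Among erythroid-like barcodes clustered with no percentile limits, the median Hbb-bs share was 98.0% in 21 WT cells with 100 to 200 alpha-globin UMIs (upper bounds excluded, here and below), 85.1% in 240 cells with 800 to 1600 and 78.0% in 163 cells with 2400 or more. In APP/PS1 it was 98.3% in 11 cells, 85.7% in 178 and 78.8% in 126. The lowest bins were small and varied, and in APP/PS1 the median at 200 to 400 alpha UMIs, 90.7%, lay below the 92.9% at 400 to 800. Above 95% Hbb-bs were 102 of 948 WT and 72 of 629 APP/PS1 erythroid-like cells with at least 100 alpha UMIs. The Hba-a1 share showed no such course, with pooled values from 54.2% to 55.4% across the WT bins and from 52.5% to 58.7% in APP/PS1.

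Bpgm ran along the same axis. Per 10000 haemoglobin UMIs it was 1.92 (0.233 to 6.95) in WT cells with 100 to 200 alpha UMIs, 7.21 (6.62 to 7.84) in those with 800 to 1600 and 12.2 (11.5 to 12.8) in those with 2400 or more. In APP/PS1 the same bins gave 1.998 (0.0506 to 11.1), 6.15 (5.50 to 6.85) and 11.8 (11.1 to 12.5), with 1 bin out of order, 11.2 at 200 to 400 alpha UMIs. Alas2 took the other direction in WT, from 20.2 (12.5 to 30.9) to 14.5 (13.8 to 15.3), with the first interval wide.

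Carriers in the other clusters were compared with erythroid-like cells of the same globin content. At 800 to 1600 alpha UMIs their median Hbb-bs share was 85.1% in 43 WT and 84.9% in 24 APP/PS1 carriers, and at 1600 to 2400 it was 80.0% in 26 and 82.3% in 20, against 81.9% and 81.7% in erythroid-like cells. Their Bpgm came to 6.28 (5.03 to 7.75) and 7.40 (5.65 to 9.53) per 10000 haemoglobin UMIs in the first of these bins and to 11.3 (9.52 to 13.2) and 8.64 (6.89 to 10.7) in the second. Other values lay further apart. At 100 to 200 alpha UMIs the median Hbb-bs share was 89.6% in 19 WT carriers against 98.0% in erythroid-like cells, and at 200 to 400 it was 97.0% in 8 APP/PS1 carriers against 90.7%. Tent5c at 1600 to 2400 in WT was 10.3 (8.62 to 12.2) per 10000 haemoglobin UMIs in carriers against 6.45 (6.08 to 6.83). Carriers above 95% Hbb-bs numbered 28 of 135 in WT and 25 of 79 in APP/PS1.

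**Figure D3:**
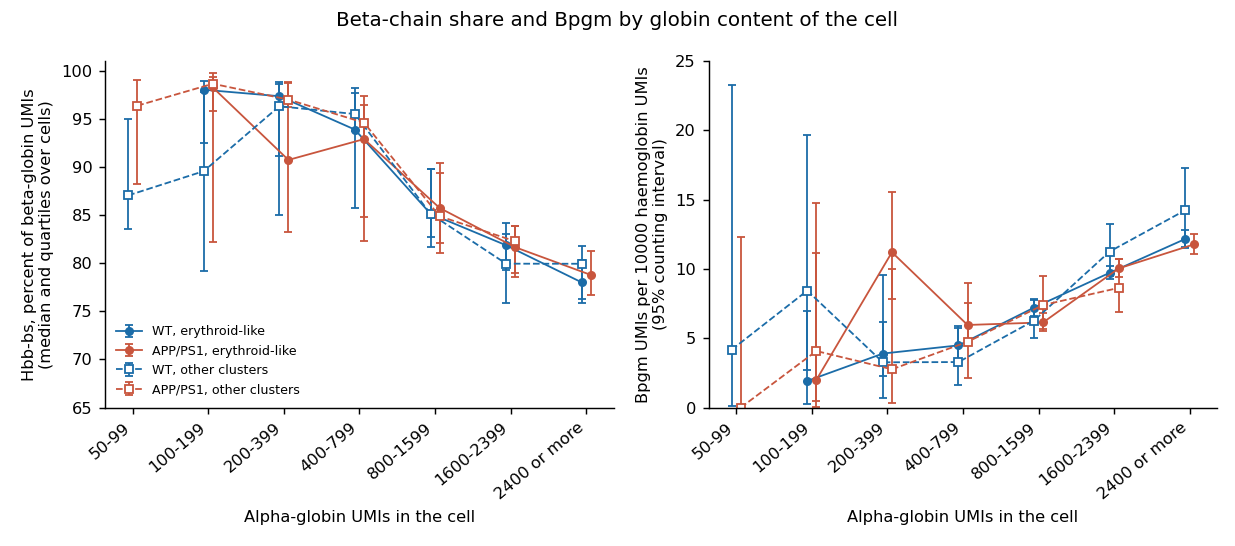
Median Hbb-bs share of beta-globin UMIs with quartiles over cells (left) and Bpgm UMIs per 10000 haemoglobin UMIs with 95% counting intervals (right), by alpha-globin UMIs in the cell (x axes), for erythroid-like barcodes with no percentile limits (filled) and carriers in the other clusters (open) in WT (blue) and APP/PS1 (red). At 800 to 1600 alpha UMIs the 4 lines lie close, with Hbb-bs near 85%. At 1600 to 2400, Bpgm is 11.3 in WT carriers against 9.73 in erythroid-like cells. In APP/PS1 it is 8.64 against 10.0. APP/PS1 carriers have no point at 2400 or more. Below 800, bins hold few cells and the bars are wide.

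Hba-a1 separated from the other globin genes where platelet RNA was present. The platelet-like cluster, 16 cells in each library, had an Hba-a1 share of alpha UMIs of 86.4% in WT and 79.5% in APP/PS1, and alpha chains were 79.7% and 80.4% of its haemoglobin UMIs. Clustered with no percentile limits, platelet-like barcodes with at most 50 haemoglobin UMIs, 115 and 146 of them, gave an Hba-a1 share of 86.3% in both libraries. The cluster with neutrophil and platelet markers, carriers left out, lay between, at 70.4% and 72.2%, against 55.5% and 57.3% in neutrophil-like cells.

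The same course was seen cell by cell when neutrophils of both clusters, carriers left out, were grouped by UMIs of 9 platelet genes such as Pf4 and Ppbp. In WT, Hba-a1 went from 0.695 UMIs per cell (0.665 to 0.726) in 2881 cells with 0 platelet UMIs to 5.55 (4.61 to 6.62) in 22 cells with 32 or more. In APP/PS1 it went from 0.419 (0.398 to 0.442) in 3341 cells to 3.49 (2.94 to 4.11) in 41. Hba-a2 moved only from 0.599 to 0.727 in WT, with overlapping intervals, and from 0.360 to 0.634 in APP/PS1. The beta genes together moved from 1.73 to 2.32 and from 1.02 to 1.34, while the median total rose from 2460 to 3639 UMIs per cell and from 2522 to 3834.

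**Figure D4:**
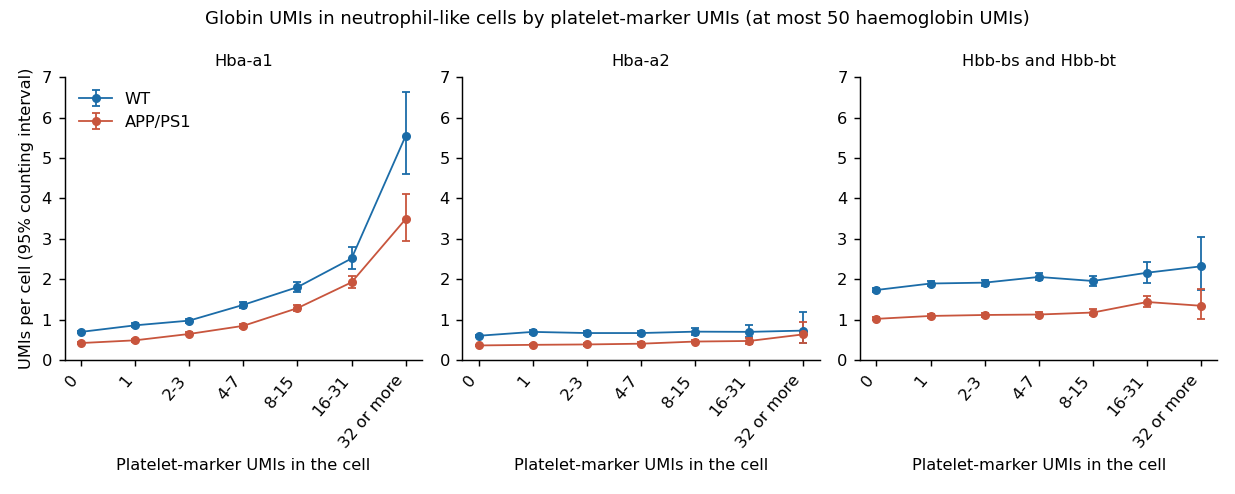
UMIs per cell (y axes, 95% counting intervals) of Hba-a1, Hba-a2 and the beta genes together in neutrophil-like cells and cells with neutrophil and platelet markers, by platelet-marker UMIs in the cell (x axes), in WT (blue) and APP/PS1 (red). Hba-a1 climbs to 5.55 and 3.49 UMIs per cell, while Hba-a2 stays below 0.73 in both libraries.

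Monocyte-like and lymphocyte-like cells showed the Hba-a1 course too. In monocyte-like cells without carriers the Hba-a1 share of alpha UMIs went from 51.7% to 70.0% in WT and from 52.0% to 79.1% in APP/PS1 between 0 and 32 or more platelet UMIs. In lymphocyte-like cells it went from 51.4% to 70.7% in WT and from 51.0% to 73.3% in APP/PS1 between 0 and 8 to 15 platelet UMIs, with 66.7% (47.2 to 82.7) in the 14 APP/PS1 cells at 16 to 31. The cells with 0 platelet UMIs in all 3 groups thus had Hba-a1 shares of 51.0% to 53.8%. Because reads shared between the paralogs are uncertain, the rise is given as a difference between cells counted alike, and the part of platelet RNA in it was not tested.

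The 4 non-globin genes split into 2 pairs outside erythroid cells. The number of UMIs each would have given was set from its proportion to haemoglobin UMIs in the erythroid-like cells of the same library. Over all cells outside the erythroid-like cluster with at most 50 haemoglobin UMIs, Alas2 gave 72 UMIs in WT where 99.5 came from scaling, a quotient of 0.724 (0.563 to 0.917), and 27 in APP/PS1 where 54.0 did, 0.5003 (0.327 to 0.736). Slc4a1 gave 4 and 2 UMIs where 19.6 and 9.10 did. Neither gene therefore exceeded its erythroid proportion to haemoglobin. Neutrophil-like cells in this layer had 0 UMIs of Slc4a1 in both libraries, a count whose 1-sided 95% limit is about 3 UMIs.

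Bpgm and Tent5c exceeded theirs. Bpgm gave 336 UMIs against 79.5 scaled in WT, a quotient of 4.23 (3.73 to 4.78), and 308 against 44.8 in APP/PS1, 6.88 (5.94 to 7.96). Tent5c gave 533 against 60.1, 8.87 (7.95 to 9.89), and 491 against 29.2, 16.8 (14.6 to 19.5). For both genes the UMIs counted differed less between libraries than the scaled numbers. Higher quotients in APP/PS1 thus do not mean higher levels of Bpgm or Tent5c there. In carriers, where haemoglobin sets far larger scaled numbers, Alas2 lay at 1.07 (0.976 to 1.17) and 0.990 (0.863 to 1.13), Bpgm at 0.714 and 0.614, Tent5c at 0.811 and 0.664 and Slc4a1 at 0.347 and 0.378. Quotients of carriers and of low-haemoglobin cells are therefore not on a like footing. All were set from erythroid-like cells inside the limits. The larger erythroid-like cluster with no percentile limits held less Bpgm, Tent5c and Slc4a1 per haemoglobin UMI. Per 10000 haemoglobin UMIs, Bpgm was 9.24 in WT and 9.12 in APP/PS1 there, against 12.7 and 12.6 inside the limits. The size of the carrier quotients of these genes thus depends on the reference.

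In these low-haemoglobin cells Tent5c, which is known in B-lineage as well as red cells, had its highest value among clusters of over 40 cells in B cell-like cells, at 46.7 CPM (36.7 to 58.6) in WT and 50.1 CPM (40.3 to 61.5) in APP/PS1. Intervals overlapped with those of WT basophil-like cells, 42.1 CPM (23.6 to 69.5), and of the APP/PS1 cluster led by Iglc1, Igha and Jchain, 44.3 CPM (29.9 to 63.2), among others. T cell-like cells with Cd8b1 had 34.6 and 23.9 CPM, and neutrophil-like cells 10.0 (8.53 to 11.7) and 7.19 (6.04 to 8.50) CPM. Bpgm was highest in T cell-like cells with Il7r, at 23.9 CPM (11.9 to 42.7) and 29.0 CPM (14.97 to 50.6), from 11 and 12 UMIs. It followed in NK cell-like cells at 19.7 (13.5 to 27.8) and 15.7 (11.4 to 21.0) CPM, whose intervals overlap those of the first. Neutrophil-like cells had 2.80 and 2.45 CPM of Bpgm, 1.84 and 2.90 times the scaled number, though with carriers kept the quotients were 0.624 and 0.925. For Tent5c they were 8.76 and 13.1 without carriers and 2.69 and 3.77 with them.

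**Figure D5:**
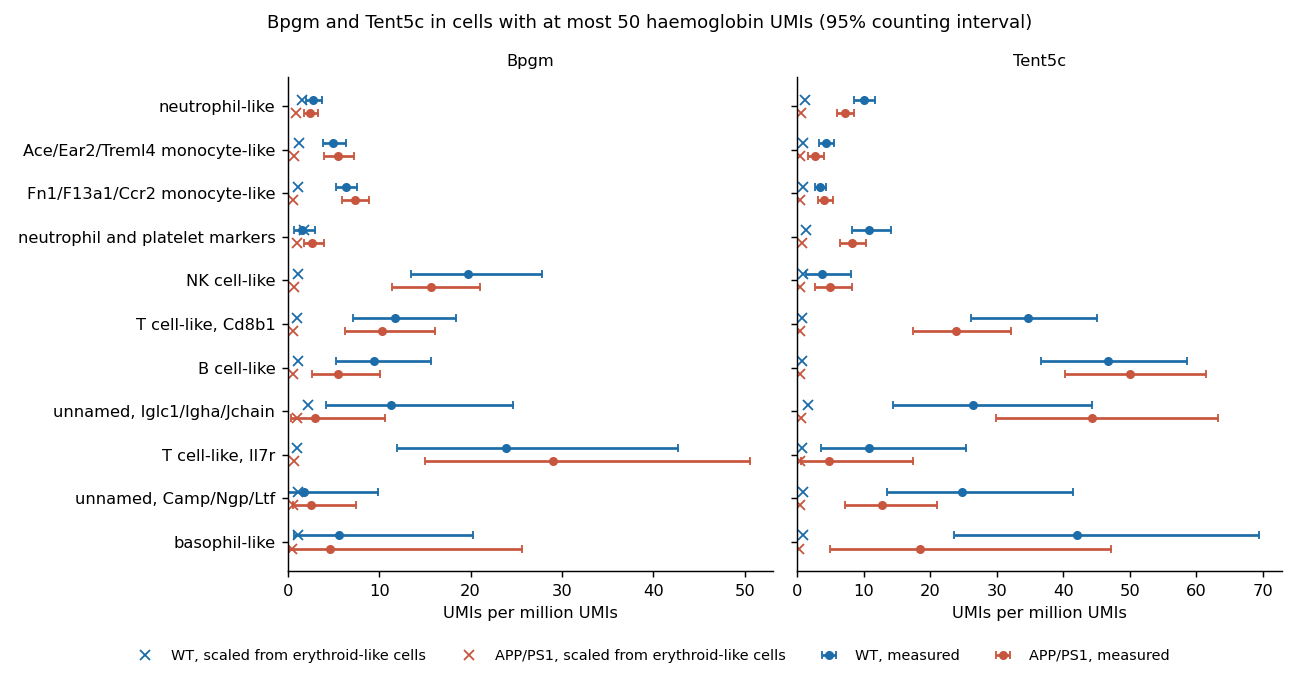
Bpgm (left) and Tent5c (right) in CPM by cluster in cells with at most 50 haemoglobin UMIs, measured (points with 95% counting intervals) and scaled from erythroid-like cells by haemoglobin UMIs (crosses), in WT (blue) and APP/PS1 (red). Tent5c lies near 50 CPM in B cell-like cells, and Bpgm in NK cell-like cells lies at 19.7 and 15.7, all above their crosses.

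The erythroid marker list held 23 genes that were in the files. Of these, Mkrn1, a ubiquitin ligase gene, and Bnip3l, a mitophagy receptor gene, stood at 174 and 188 CPM in WT neutrophil-like cells without carriers. Between genotypes in neutrophil-like cells, 0 of the 6 list genes with at least 50 UMIs passed 0.5 log2 downwards and 1 passed it upwards, and of the 9 platelet genes 0 passed it downwards and 2 upwards, beside the 3.96% and 5.97% of all genes.

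Across the 24 sums of library and cluster outside erythroid-like cells, the gene most like summed haemoglobin on the log2(CPM + 1) scale was Alas2, with Pearson's r = 0.821, followed among non-members by Sephs1 at 0.680, Uqcc1 at 0.676, Cep85 at 0.653, Cbr1 at 0.653 and Xrcc6 at 0.648. Bpgm stood at 0.548, Slc4a1 at 0.519 and Tent5c at 0.341. With the 2 erythroid sums added, Alas2 was at 0.929, Slc4a1 at 0.855, Bpgm at 0.823 and Tent5c at 0.738. The nearest non-members were then Fech, the enzyme that inserts iron into haem, at 0.761, Ube2c, a cell-cycle gene, at 0.732, Fam210b at 0.698, Tmcc2 at 0.668 and Prxl2a at 0.650. These correlations are descriptions over 10512 genes, and their points share libraries, depth and carriers.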

How the data were processed

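Blood neutrophils of 2 genotypes were measured as 2 droplet single-cell libraries. The deposited matrices hold UMI counts per gene and barcode, which the authors made with Cell Ranger 5.0.0 on build mm10, per the labels, without further scaling. As in the study's methods, cells outside the 5th to 95th percentiles of genes and UMIs (taken per library) or above 10% mitochondrial UMIs and genes in fewer than 3 cells were dropped, which left 14564 WT and 15208 APP/PS1 cells of 92458623 and 84870864 deposited UMIs. Cells of both libraries were clustered together with Seurat 5.3.0 (2000 variable features, 15 components, resolution 0.2). No integration or batch correction was run, unlike in the study. The 8 genes were left out of features and scaling, and clusters were named from marker lists. Scrublet in scanpy 1.11.5, at the score of 0.217 found in WT and used for both (that found in APP/PS1 was 0.728), marked doublets, which were kept: 7.61% of WT and 5.81% of APP/PS1 cells. The 8 genes were not left out for Scrublet.

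Counts were summed per library and cluster as CPM with exact Poisson intervals, ratios with exact conditional intervals and shares with Clopper-Pearson intervals (scipy 1.17.1). No test was possible with 1 library per genotype. Genes with at least 50 UMIs in either library and over 0.5 log2 apart made up the background. Cells with over 50 haemoglobin UMIs were set apart after the data had been seen. Shares of cells were also taken with each cell thinned to 1000 UMIs. The scripts were tested on simulated data. Alternatives changed the denominator, scaling (edgeR 4.0.16 TMM), limits, doublets, components, resolution and erythroid reference. The genes named are the 8 members, marker-list genes a result turns on, and the 5 non-members most correlated with haemoglobin in each of 2 sets of sums, among genes with at least 200 UMIs. Members, lists and rules were chosen with earlier results of these data known.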

Additional observations from a re-analysis of the deposited data

Results flagged for a closer look

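Most haemoglobin UMIs lay in barcodes outside the limits, which the comparisons inside the limits did not use and those with no percentile limits did. Of all haemoglobin UMIs, 70.0% in WT and 78.4% in APP/PS1 lay in barcodes outside the limits on genes, UMIs and mitochondrial share. The barcodes over 50% haemoglobin among those removed numbered 819 in WT and 574 in APP/PS1, against 196 and 92 among the cells kept.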

How the results depend on the processing

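No paired analysis was possible because each genotype is 1 library with no replicate number. The limits of these values are that depth bounds only counting error, that 1 preparation stands for each genotype, and that erythroid-like cells inside the limits carried neutrophil RNA. Of the values that answer a comparison, 22 alternatives stayed within the counting interval and 54 moved outside it. Among the rest, 38 stayed, 40 moved and 8 went to the other side of the value for no difference.

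The neutrophil-like ratio of haemoglobin CPM, APP/PS1 to WT, of 0.603 stayed below 1 throughout: 0.577 as a mean over cells, 0.584 with TMM, 0.563, 0.567 and 0.575 in cells with at most 50, 25 and 100 haemoglobin UMIs, 0.637 with no percentile limits, 0.644 with percentiles over both libraries, 0.469 without Scrublet doublets, 0.555 with 30 components, 0.245 at resolution 0.4 and 0.549 with the members kept in the clustering. Haemoglobin per neutrophil-like cell as a percent of that per erythroid-like cell, in WT and then APP/PS1, was 0.0630 and 0.0432, 0.0598 and 0.0414, and 0.0654 and 0.0459 under the limits of 50, 25 and 100 UMIs, 0.662 and 0.469 with no percentile limits, 0.208 and 0.154 with percentiles over both libraries, 0.180 and 0.107 without doublets, 0.299 and 0.1997 with 30 components, 0.205 and 0.0566 at resolution 0.4 and 0.0962 and 0.0639 with the members kept.

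The Hbb-bs gap in percentage points, neutrophil-like minus erythroid-like, was 4.57 and 4.03, 4.64 and 3.74, and 4.58 and 3.97 under the 3 limits, 3.09 and 3.10 with no percentile limits, 10.2 and 12.3 without doublets, 5.93 and 4.80 with the members kept, and in WT 7.23 with 30 components and 8.45 at resolution 0.4. Without doublets, the erythroid reference cluster also passed as platelet-like, with all 9 platelet markers raised, so the values without doublets that are set against erythroid cells have a mixed reference. The gap in the alpha share in APP/PS1, -1.59, turned to 3.86, 3.66 and 3.73 under the limits of 50, 25 and 100 UMIs, 1.23 without doublets and 3.19 with the members kept.

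For the quotient to the scaled number in neutrophil-like cells, Bpgm in WT crossed 1 under the 3 limits, at 1.84, 1.91 and 1.77. Alas2 was 1.01 in WT with no percentile limits and 0.451 and 0.637 with the members kept. Tent5c was 8.76, 9.21 and 8.42 in WT and 13.1, 13.6 and 12.4 in APP/PS1 under the limits of 50, 25 and 100 UMIs, 3.91 and 5.15 with the erythroid reference without limits, 6.35 and 10.8 with the members kept, 2.16 in WT with 30 components, and in APP/PS1 2.89 with no percentile limits, 4.82 without doublets and 7.86 at resolution 0.4. The cause of these moves was not tested. With a minimum of 200 UMIs in place of 50, the neutrophil-like genes lower and higher in APP/PS1 went from 312 and 470 of 7876 to 144 and 159 of 5301.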
